A study of Mus musculus with 10 samples.

Results

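This account covers 35 genes of protein folding and stress in the endoplasmic reticulum (ER), measured in mouse haematopoietic stem cells (HSCs) sorted from bone marrow. The members were listed by function, and each gene was read from the probe set that names it alone and had the highest average across the 10 arrays. All 35 had such a probe set, out of 19938 genes with one. Transgenic HSCs came from mice that carry both the allele Gt(ROSA)26Sortm1(rtTA*M2)Jae, from a B6.Cg strain, and the transgene (tetO)7CMVSox17-IRES-NucEGFP, so that doxycycline, acting through the rtTA activator, turns on Sox17, an endoderm and arterial transcription factor that fetal HSCs need. The controls were littermates labelled wild type; whether they carried 1 of the 2 alleles is not stated in the sources used here. Mice of both groups were 8 weeks old and drank doxycycline at 2 mg/ml for 5 days. Each of the 5 arrays per group held RNA of 10000 cells sorted as CD150+, Sca1+ and cKit+ and as negative for CD48 and lineage markers. The activator is expressed from the ROSA26 locus, which is active in many cell types, so induction need not be limited to HSCs, and the labels do not tie an aliquot to 1 animal. The p-values therefore reflect variation among these aliquots, part of which may be technical.

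Proteins that enter the ER are folded by chaperones, linked by disulfide isomerases and given N-glycans by the oligosaccharyltransferase. Lectins read those glycans until folding is complete, and failed proteins are sent back to the cytosol for degradation. When unfolded protein builds up, the sensors IRE1 (Ern1), PERK (Eif2ak3) and ATF6 raise the folding genes through the factors XBP1, ATF4 and ATF6 itself, and prolonged stress raises Ddit3 (CHOP). HSCs make protein slowly compared with progenitors, and this stress response has been studied in them for its part in survival and self-renewal.

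Values are log2 expression values per probe set, as deposited. The mean values of the 35 members lay between the 55.6 and 97.7 percentile of the tested probe sets, so no member read near the array's floor. No gene's level is set against another gene's. Cell type marker lists are given as the log2 of their summed linear values, in which the brightest probe sets weigh most. Of the stem cell markers, 8 of 9 were measured, and 0 of these 8 had a mean below the 25th percentile of probe sets. The induced gene could not be checked: its probe set read 4.25 to 4.51 on the transgenic and 4.02 to 4.30 on the wild-type arrays (difference 0.16, limma adjusted p = 0.855). The directions below thus rest on the labels. Transgenic array 4 stood apart from the other arrays in sex-linked genes, with Xist at 4.32 and Eif2s3y at 9.23 against 10.8 to 11.4 and 2.57 to 2.87 elsewhere. The arrays also split into 2 sets of 5 that cut across the groups. Set A held transgenic arrays 1 to 3 and wild-type arrays 1 and 2, set B the other 5. They were drawn from the data, by the leading principal component of each array's departure from its group mean (40.1% of that variance). Within each group set A held the lower replicate numbers of the titles, though number 3 fell in A for transgenic and in B for wild type. No other label used here separates the sets, and what the numbers stand for is not stated.

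The promoters of 8 members carried the ER stress response element (ERSE), the sequence through which ATF6 and XBP1 act on folding genes. It reads CCAAT, 9 further bases, then CCACG, and was searched by exact letters on both strands from 250 bases before to 50 after each annotated start (RefSeq, GRCm38.p6). Of the 31 members with a promoter in that table, 8 (25.8%) held it, against 37 of all 27025 genes (0.137%). A related element, ERSE-II, reads ATTGG, 1 base, then CCACG, and was held by Dnajb11 and Herpud1, 2 of 31 members (6.45%), against 12 of all genes (0.0444%). A search for the XBP1 core TGACGTGG found it in 0 of 31 members, against 193 of all genes (0.714%), and the amino acid response core TGATGNAA in 1 of 31, Herpud1, against 4.51% of all genes. The ERSE is known as an element of folding genes and the members were listed by function, so its higher share among them was to be foreseen. A match is a description of letters and no proof of a working site. The members with a match before the start are shown because this is the element through which the stress factors are known to act. The element is in capitals, and each sequence runs 5′ to 3′ on the strand where the element reads forward.
Hspa5, chr2:34772015-34772053, plus strand: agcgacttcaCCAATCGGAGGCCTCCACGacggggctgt
Hsp90b1, chr10:86705628-86705666, minus strand: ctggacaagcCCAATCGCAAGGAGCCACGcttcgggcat
Hsp90b1, chr10:86705523-86705561, plus strand: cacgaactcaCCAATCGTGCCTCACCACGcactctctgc
Calr, chr8:84847065-84847103, plus strand: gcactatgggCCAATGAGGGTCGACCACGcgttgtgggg
Canx, chr11:50325790-50325828, minus strand: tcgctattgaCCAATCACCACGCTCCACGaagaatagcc
Creld2, chr15:88819510-88819548, minus strand: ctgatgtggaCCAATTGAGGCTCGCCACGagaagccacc
Dnajc3, chr14:118937817-118937855, plus strand: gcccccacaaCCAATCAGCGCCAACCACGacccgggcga
Pdia6, chr12:17266481-17266519, plus strand: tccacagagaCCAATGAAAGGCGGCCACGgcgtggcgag
Syvn1, chr19:6046522-6046560, plus strand: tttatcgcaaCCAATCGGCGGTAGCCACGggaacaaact
Herpud1 (ERSE-II), chr8:94386367-94386397, plus strand: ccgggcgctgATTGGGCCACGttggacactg
The element lay 26 to 212 bases before the start in these 9 members. In Dnajb11 the match lay after the start and is not shown.

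The ER genes as a group differed little between Sox17-transgenic and wild-type HSCs. The glycan-binding lectin Mlec fell on the transgenic arrays, and it was the 1 member of 35 past the threshold (limma, Benjamini-Hochberg over 23410 probe sets, adjusted p under 0.05). The stress factor Xbp1 read 2.31-fold higher without passing. Among all tested probe sets 0.141% were called in either direction and 0.0214% were called lower. At an unadjusted p under 0.05 there were 2 members higher (Xbp1 and Dnajb9), beside 3.7% of all probe sets, and 2 lower (Mlec and Sdf2l1), beside 2.9%. That made 4 of 35 beside 6.59% in either direction. The groups did not overlap for 2 of 35 members, Mlec and Xbp1, beside 1.47% of probe sets. The median log2 difference of the members was 0.04, with 21 positive and 14 negative, beside a median of -0.01 over all genes. In a bulk sample such as this, fewer cells of a type and less RNA per cell cannot be told apart.

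The precision bounded most members, though a smaller share of them than of all genes. The 95% confidence interval of the log2 difference lay within 0.5 of zero for 20 of 35 members, beside 14785 of all 19938 genes. It lay within 1 of zero for 33 members, the exceptions being Dnajb9 and Xbp1, beside 19248 of all genes. For the chaperone Hspa5 (BiP), the usual gauge of ER stress, the interval ran from -0.27 to 0.55. For Hsp90b1 it ran from -0.17 to 0.24 and for Pdia3 from -0.13 to 0.22.

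**Figure D1:**
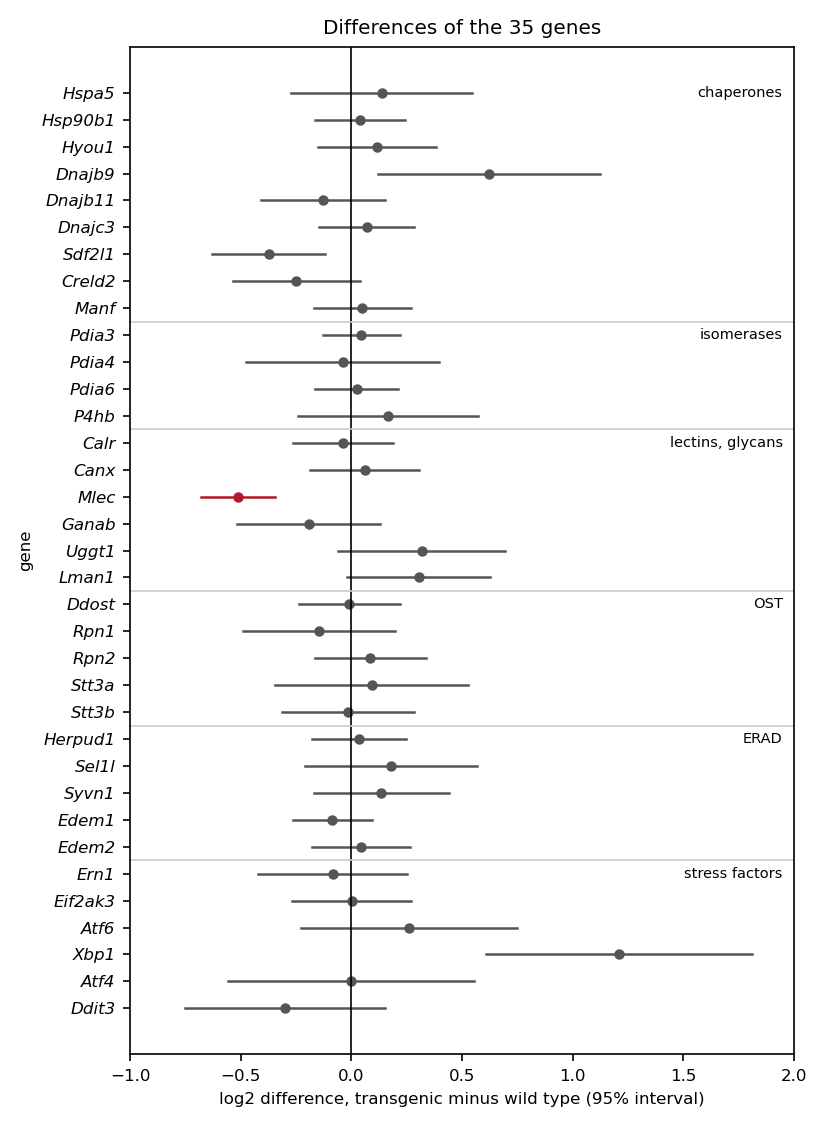
Log2 difference, transgenic minus wild type, of each of the 35 genes (points) with its 95% confidence interval from limma (lines), grouped by role (OST, oligosaccharyltransferase; ERAD, ER-associated degradation). Mlec, in red, is the 1 gene past the threshold at -0.51, and Xbp1 stands farthest to the right at 1.21.

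Among the lectins and enzymes of the glycan folding cycle, only Mlec passed, out of 6 measured. Malectin (Mlec) is an ER membrane lectin that binds glucosylated N-glycans early in folding and associates with the oligosaccharyltransferase subunit ribophorin I. It read 8.33, 8.54, 8.34, 8.56 and 8.57 on transgenic arrays 1 to 5 and 8.94, 9.03, 8.98, 8.92 and 9.03 on wild-type arrays 1 to 5. All 5 transgenic arrays thus lay below all 5 wild-type arrays, as in 0.594% of all probe sets. The difference was -0.51 (SE 0.08), 1.43-fold lower, with an adjusted p of 0.0308 (limma). The other Mlec probe set also showed no overlap, with 8.14, 8.15, 8.02, 8.57 and 8.69 against 8.73, 8.99, 9.33, 9.12 and 9.07. Its difference of -0.73 (SE 0.15) had an adjusted p of 0.124 and did not pass.

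The fall in Mlec had the same direction in both array sets, but its call was not firm. Set A gave -0.58 and set B gave -0.41, and with the set as a block the adjusted p was 0.0258 (limma, where 0.389% of probe sets were called and 0.0769% were called lower). Without transgenic array 1, 3 or 4 the adjusted p was 0.0826, 0.0854 and 0.0691, and leaving out wild-type array 1, 2, 3, 4 or 5 gave 0.0861, 0.0984, 0.0781, 0.0591 and 0.0971. It remained past the threshold without transgenic array 2 or 5, at 0.0374 and 0.0430. The log2 difference itself kept between -0.54 and -0.48 whichever array was left out. As a replicate block, the numbers in the titles gave an adjusted p of 0.0966.

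The other lectin-cycle genes did not pass. Lman1, a receptor that carries glycoproteins from the ER towards the Golgi, read 8.66, 8.93, 8.80, 8.42 and 8.43 on the transgenic arrays and 8.70, 8.55, 8.11, 8.30 and 8.06 on the wild-type arrays. The groups overlapped, and the difference was 0.31 (SE 0.15, adjusted p = 0.784). Uggt1, which tags misfolded glycoproteins for another round of folding, differed by 0.32 (SE 0.17), and Ganab, the catalytic subunit of glucosidase II, by -0.19 (SE 0.15). The lectin chaperones calreticulin (Calr) and calnexin (Canx) differed by -0.04 (SE 0.10) and 0.06 (SE 0.11).

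**Figure D2:**
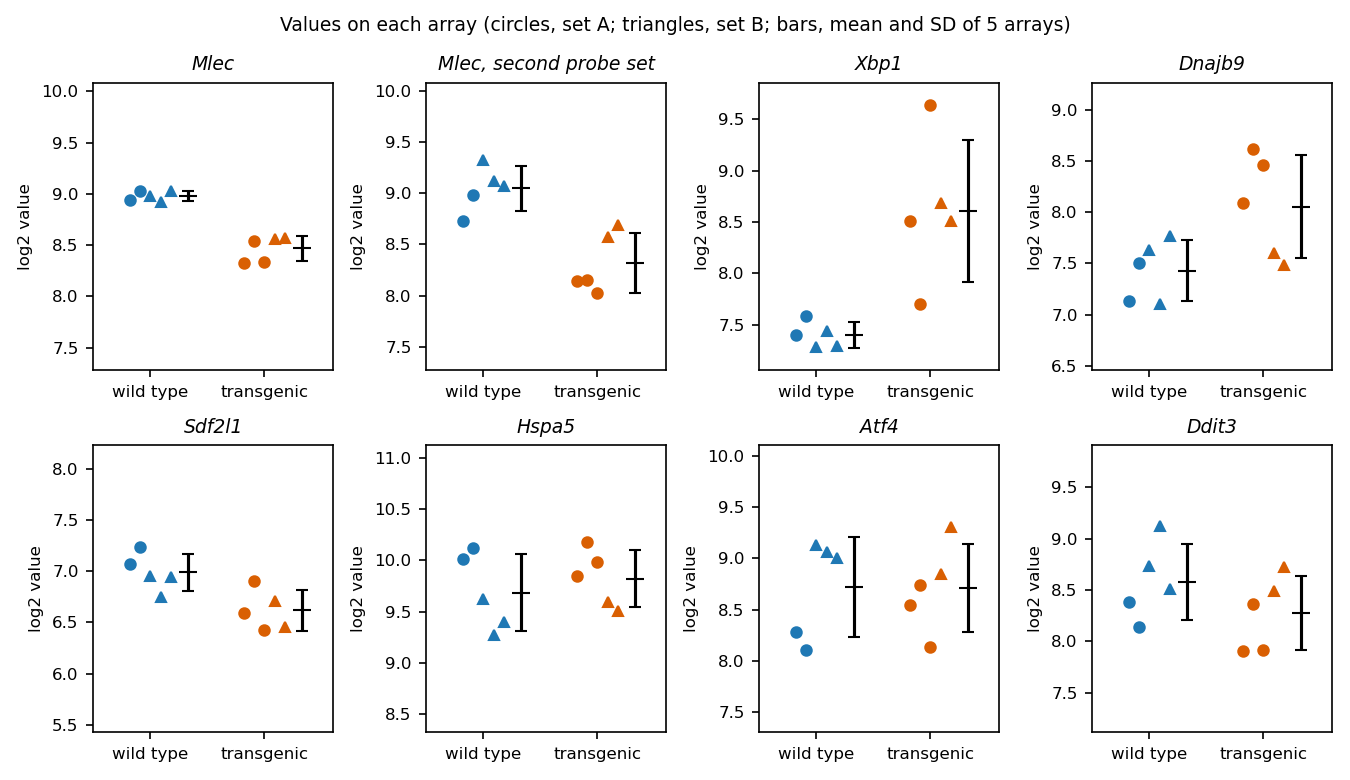
Log2 values on each array for Mlec (both probe sets), Xbp1, Dnajb9, Sdf2l1, Hspa5, Atf4 and Ddit3, wild type in blue and transgenic in orange, with circles for set A, triangles for set B and bars for the mean and SD of 5 arrays. The groups do not overlap for Mlec and Xbp1, while Hspa5, Atf4 and Ddit3 part by set.

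Xbp1 had the largest difference of the stress factors and of all 35 members. It encodes the transcription factor that IRE1 activates by splicing its mRNA, and it is also needed for secretory cells such as plasma cells. It read 8.51, 7.70, 9.64, 8.69 and 8.51 on transgenic arrays 1 to 5 and 7.40, 7.59, 7.28, 7.44 and 7.29 on wild-type arrays 1 to 5. All transgenic arrays lay above all wild-type arrays, as in 0.876% of probe sets, but transgenic array 2 was only just above the highest wild-type array and transgenic array 3 far above the rest. The difference was 1.21 (SE 0.27), with 8.61 ± 0.69 against 7.40 ± 0.13 (SD, n = 5 each), and did not pass (limma adjusted p = 0.173). Without transgenic array 2 it was 1.44 and passed (adjusted p = 0.0274), and without transgenic array 3 it was 0.95 (adjusted p = 0.161). Within the sets it was 1.12 in A and 1.26 in B. One value per probe set does not separate spliced from unspliced Xbp1 mRNA.

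Of the marker lists of other cell types, the megakaryocyte and platelet list alone did not overlap between the groups either as a sum or as the mean deviation of its genes from their own means. The plasma and B cell list (11 measured of 12) overlapped between groups, with log2 summed levels of 8.47 to 8.90 on the transgenic and 8.69 to 9.17 on the wild-type arrays, and 5 of its 11 genes had means below that percentile. Its plasma cell gene Jchain read 3.23 to 3.65 and 3.17 to 3.44, near the floor on every array, a difference of 0.12 (SE 0.09). Other genes of plasma cells in the list went both ways. Mzb1 and Sdc1, with means at the 40.6 and 36.3 percentile, differed by -0.14 (SE 0.13) and -0.12 (SE 0.09). Prdm1 and Irf4, at the 28.4 and 19.9 percentile, differed by 0.04 (SE 0.10) and 0.09 (SE 0.11). The brightest gene of the plasma and B cell list was Vpreb1, at the 74.1 percentile, so it weighed most in the summed levels. Vpreb1 was lower by -0.83 (SE 0.27, limma adjusted p = 0.466), and its groups overlapped. By array set its differences were -0.94 (A) and -0.53 (B). No other gene of this list had an unadjusted p under 0.05. The 7 measured megakaryocyte and platelet genes summed to 9.09 to 9.56 against 10.0 to 11.0, with mean deviations of -0.61 to -0.22 against 0.13 to 0.72. The 9 erythroid genes summed to 10.4 to 10.6 against 10.7 to 11.1, but their mean deviations overlapped (-0.31 to -0.014 against -0.034 to 0.33). The 12 granulocyte and monocyte genes summed to 9.89 to 11.1 against 9.51 to 9.82, highest on transgenic array 5, but their mean deviations overlapped (-0.12 to 1.03 against -0.36 to -0.11). The 8 endothelial genes summed to 9.79 to 10.4 against 9.48 to 9.95, which overlapped, while their mean deviations did not (-0.091 to 0.48 against -0.38 to -0.15). The 8 stem cell genes summed to 11.7 to 11.9 against 11.6 to 11.9, which overlapped, and 0 passed the threshold. At an unadjusted p under 0.05 (limma), 3 of them were higher and 1 lower, beside 3.7% and 2.9% of all probe sets. Procr (1.08, SE 0.27), Mecom (0.33, SE 0.10) and Fgd5 (0.27, SE 0.10) were higher, and the sort marker Kit was lower (-0.47, SE 0.12). The part of these marker values in the Mlec and Xbp1 differences was not tested.

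The other sensors and factors did not pass in the 6 genes of that role. The factor ATF4 is translated when PERK slows protein synthesis; its gene Atf4 read 8.55, 8.74, 8.13, 8.85 and 9.30 on the transgenic and 8.28, 8.10, 9.13, 9.07 and 9.01 on the wild-type arrays. The difference was -0.0034 (SE 0.25), and in both groups the set B arrays were the higher ones. Ddit3, the stress factor that promotes cell death, read 7.90, 8.36, 7.92, 8.49 and 8.72 against 8.39, 8.14, 8.73, 9.12 and 8.51. Its difference was -0.30 (SE 0.21, adjusted p = 0.905), and the groups overlapped. Atf6 differed by 0.26 (SE 0.22), Ern1 by -0.09 (SE 0.15) and Eif2ak3 by 0.0022 (SE 0.12). Within the sets Ern1 differed by 0.30 in A and -0.43 in B.

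Of the 9 chaperones and their partners 0 passed (limma), beside 0.141% of all probe sets. At an unadjusted p under 0.05, 1 was higher and 1 lower, beside 3.7% and 2.9%. Hspa5, the central ER chaperone, read 9.85, 10.18, 9.99, 9.59 and 9.51 on the transgenic and 10.02, 10.12, 9.62, 9.27 and 9.40 on the wild-type arrays. In both groups the set A arrays were the higher ones, and the difference was 0.14 (SE 0.19, adjusted p = 0.963). Dnajb9 (ERdj4), a J-domain partner of BiP that restrains IRE1, read 8.09, 8.61, 8.46, 7.60 and 7.48 against 7.13, 7.51, 7.63, 7.10 and 7.77. Only the set A transgenic arrays stood above the wild-type range. The difference was 0.62 (SE 0.23, adjusted p = 0.573), at 1.07 among set A and 0.04 among set B arrays; the difference between the sets was not tested.

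Sdf2l1, which works with BiP against aggregation, was lower in both sets without passing. It read 6.59, 6.90, 6.42, 6.71 and 6.46 on the transgenic and 7.07, 7.23, 6.95, 6.75 and 6.94 on the wild-type arrays. The groups overlapped through transgenic array 2 and wild-type array 4, and the difference was -0.37 (SE 0.12, adjusted p = 0.426), where set A gave -0.51 and set B -0.30. The secreted stress proteins Creld2 and Manf differed by -0.25 (SE 0.13) and 0.05 (SE 0.10). The BiP partners Dnajb11 and Dnajc3 differed by -0.13 (SE 0.13) and 0.07 (SE 0.10), and the large chaperones Hyou1 and Hsp90b1 by 0.12 (SE 0.12) and 0.04 (SE 0.09). Dnajc3 lies on 2 probe sets with identical values, counted as 1.

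Of the 4 disulfide isomerases 0 passed (limma) and 0 had an unadjusted p under 0.05, beside 0.141% and 6.59% of all probe sets. P4hb, which forms disulfides and is also a subunit of prolyl hydroxylase, read 8.53, 8.24, 8.65, 8.41 and 7.87 on the transgenic and 8.43, 8.62, 8.13, 7.88 and 7.81 on the wild-type arrays. Its difference was 0.16 (SE 0.19), and its groups overlapped. Pdia3, the isomerase that works with calnexin and calreticulin, read 9.43, 9.69, 9.51, 9.62 and 9.46 against 9.59, 9.44, 9.60, 9.45 and 9.41, a difference of 0.04 (SE 0.08). Pdia6 differed by 0.02 (SE 0.09). Pdia4 differed by -0.04 (SE 0.20), with -0.47 on set A and 0.22 on set B arrays, and spread from 7.10 to 8.23 on the wild-type arrays. The other Pdia4 probe set, with a mean at the 25.5 percentile, differed by -0.29 (SE 0.25, limma adjusted p = 0.934).

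The 5 oligosaccharyltransferase subunits, which attach N-glycans, gave 0 calls (limma) and 0 with an unadjusted p under 0.05. Among all probe sets the shares were 0.141% and 6.59%. Rpn1, the ribophorin that malectin binds, read 8.84, 8.73, 8.67, 8.77 and 8.17 on the transgenic and 8.87, 8.90, 9.10, 8.37 and 8.68 on the wild-type arrays. Its difference was -0.15 (SE 0.16), with the groups overlapping. Rpn2, the other ribophorin, read 8.69, 8.64, 8.83, 8.69 and 8.60 against 8.82, 8.91, 8.51, 8.42 and 8.37, a difference of 0.09 (SE 0.11). The catalytic subunits Stt3a and Stt3b differed by 0.09 (SE 0.20) and -0.02 (SE 0.14), and Ddost by -0.0092 (SE 0.10).

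The 5 degradation genes likewise gave 0 calls (limma) and 0 with an unadjusted p under 0.05, beside 0.141% and 6.59% of probe sets. Edem1, a lectin-like protein that marks misfolded glycoproteins, read 6.59, 6.22, 6.46, 6.49 and 6.47 on the transgenic and 6.41, 6.52, 6.58, 6.55 and 6.59 on the wild-type arrays, a difference of -0.09 (SE 0.08). Sel1l, the adaptor of the ER ubiquitin ligase, read 7.16, 7.33, 7.45, 7.39 and 7.12 against 7.53, 7.49, 7.16, 6.80 and 6.59. The transgenic arrays lay inside the wild-type range, and the difference was 0.18 (SE 0.18). The ligase Syvn1 (HRD1) differed by 0.14 (SE 0.14), its membrane partner Herpud1 by 0.03 (SE 0.10) and Edem2 by 0.04 (SE 0.10).

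Of the 8 members with the ERSE, 0 were called (limma) and 0 had an unadjusted p under 0.05. Among all probe sets the shares were 0.141% and 6.59%, so counts of 0 lie near them in so few genes. The log2 differences of the 8 ran from -0.25 (Creld2, 95% confidence interval -0.54 to 0.04) to 0.14 (Hspa5, -0.27 to 0.55), with a median of 0.05. Over all 21 measured genes whose promoter holds the element, members included, the counts were also 0 and 0, with a median of -0.01. The 21 members with a promoter in the table but neither element ranged from -0.51 (Mlec) to 1.21 (Xbp1), with 1 call and 4 at an unadjusted p under 0.05. Members with and without the element were not tested against each other. The 250 bases before the start of Xbp1 and of Mlec are printed because Xbp1 had the largest difference and Mlec was the 1 member called, and they hold no exact match to the elements searched.
Xbp1, chr11:5520391-5520640, plus strand: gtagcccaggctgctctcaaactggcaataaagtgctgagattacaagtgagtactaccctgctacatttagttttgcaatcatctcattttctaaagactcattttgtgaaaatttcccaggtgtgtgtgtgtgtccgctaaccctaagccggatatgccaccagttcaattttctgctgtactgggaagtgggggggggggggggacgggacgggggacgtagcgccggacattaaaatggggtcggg
Mlec, chr5:115158177-115158426, minus strand: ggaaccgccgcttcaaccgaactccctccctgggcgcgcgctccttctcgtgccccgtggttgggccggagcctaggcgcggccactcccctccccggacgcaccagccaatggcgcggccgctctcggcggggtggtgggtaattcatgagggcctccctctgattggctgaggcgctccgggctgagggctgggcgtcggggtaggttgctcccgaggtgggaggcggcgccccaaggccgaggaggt
The lack of a match says only that these exact letters are not in this window.

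**Figure D3:**
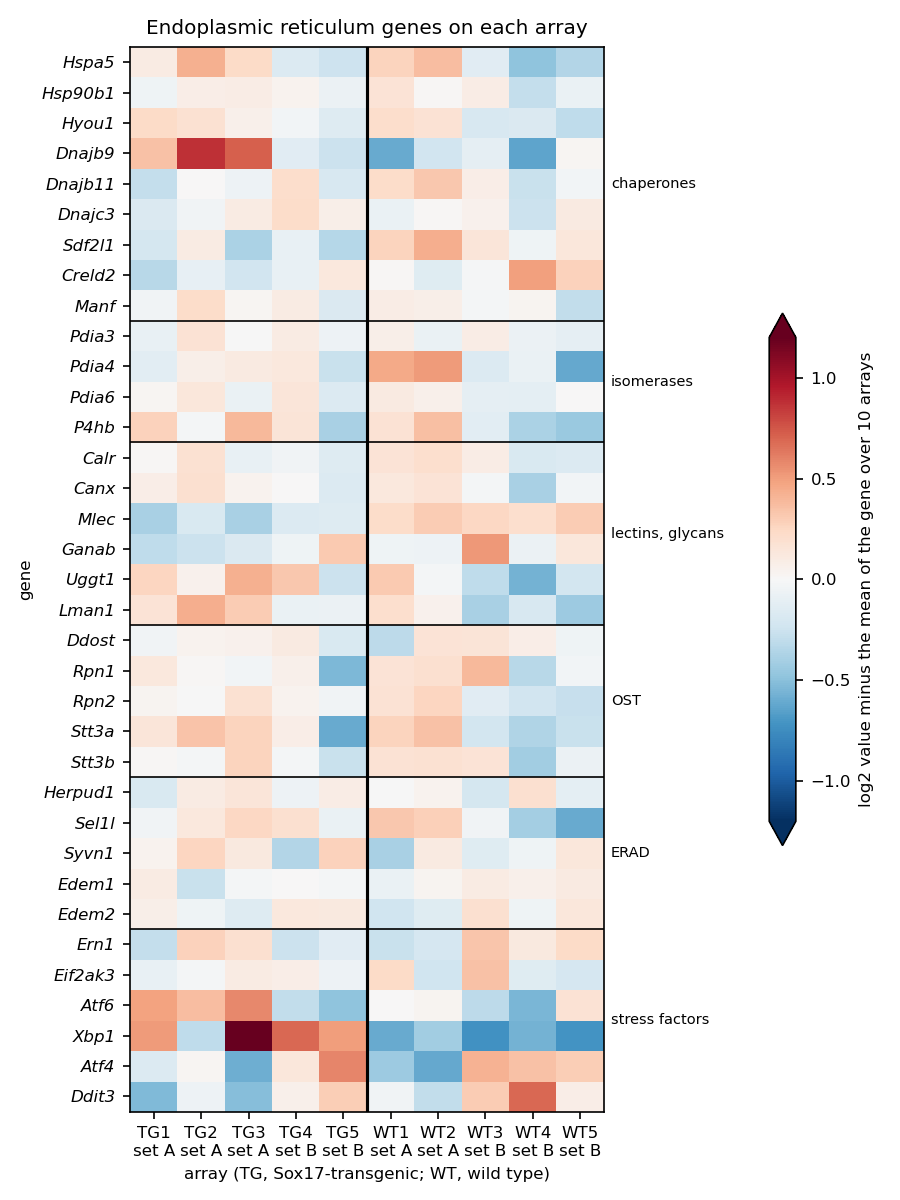
Deviation of each of the 35 genes on each array from its mean over 10 arrays (log2 units, red higher, blue lower; Xbp1 on transgenic array 3 exceeds the colour scale), with genes in rows by role and arrays in columns by group and set. Mlec is blue on all 5 transgenic arrays and Xbp1 red on 4 of 5, whereas Hspa5 and Ddit3 change colour with the set.

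Several members followed the array sets more closely than the groups. In 7 of 35 members the 5 arrays of set A lay wholly above or below the 5 of set B, beside 9.24% of all probe sets; since the sets were drawn from the values, this is a description with no test. Higher in set A were 5, beside 3.92% of probe sets: Hspa5 (9.85 to 10.18 in A against 9.27 to 9.62 in B), Hyou1 (7.08 to 7.25 against 6.71 to 6.98), Canx (10.88 to 11.03 against 10.45 to 10.84), Lman1 (8.55 to 8.93 against 8.06 to 8.43) and Stt3a (10.11 to 10.31 against 9.36 to 10.05). Higher in set B were 2, beside 5.32% of probe sets: Atf4 (8.85 to 9.30 in B against 8.10 to 8.74 in A) and Ddit3 (8.49 to 9.12 against 7.90 to 8.39). Atf4 and Ddit3 thus stood on the other side of the split from these 5 genes. The remaining members overlapped between the sets. Among them were the PERK gene Eif2ak3 (5.88 to 6.35 in A against 5.91 to 6.46 in B) and the chaperone Hsp90b1 (11.02 to 11.24 against 10.78 to 11.16). Whether the split followed pathways was not tested.

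Within the sets, 24 of 35 members were lower on the transgenic arrays in A and 13 in B, beside 10152 and 10853 of all 19938 genes. The members' medians were -0.04 and 0.04, from 3 against 2 and 2 against 3 arrays, and the difference between the sets was not tested. The sign was the same in both sets for 9 members lower and 7 higher, beside 6022 and 4955 of all genes. Mlec, Sdf2l1 and Xbp1 were among these members. With the set as a block Mlec was again the 1 member called (limma), and Xbp1 had an adjusted p of 0.136.

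**Figure D4:**
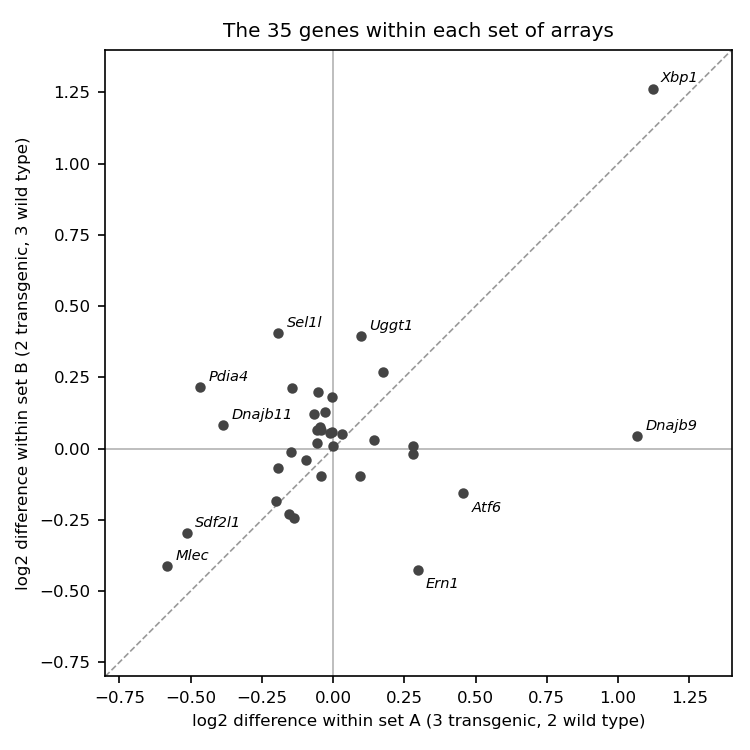
Log2 difference, transgenic minus wild type, of the 35 genes within set A (horizontal axis, 3 against 2 arrays) and within set B (vertical axis, 2 against 3 arrays), with equal values on the dashed line. Xbp1, Mlec and Sdf2l1 lie near the line, Dnajb9 lies at 1.07 horizontally and 0.04 vertically, and most of the other genes lie within 0.5 of zero on both axes.

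In 5 further lists of the pathway, with 109 measured genes of 116, 0 passed (limma), beside 0.141% of all probe sets. A count of 0 lies near that share in lists of this size. The median difference was 0.05, with 72 positive and 37 negative. Over all genes the median was -0.01, with 9117 positive and 10821 negative. The lists were not tested against all genes. At an unadjusted p under 0.05, 4 of these genes were higher and 1 lower, beside 3.7% and 2.9% of all probe sets. The folding and oxidation list (21 measured) had 0 genes at that level, led by the thioredoxin-family gene Txndc12 (0.19, SE 0.09), Erp29 (0.17, SE 0.08) and Dnajc10 (0.18, SE 0.10). The ER entry and glycosylation list (27 measured) had 1, the signal peptidase subunit Sec11a (0.22, SE 0.08, adjusted p = 0.608), ahead of the translocon genes Sec61a1 (0.19, SE 0.11) and Sec63 (0.21, SE 0.13). The degradation list (19 measured) had 1, the ubiquitin-conjugating enzyme Ube2g2 (0.50, SE 0.17, adjusted p = 0.479), ahead of the lectins Erlec1 (0.33, SE 0.18) and Os9 (0.32, SE 0.17).

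The list of stress signalling genes and targets (22 measured) had 1 higher, the kinase Eif2ak2 (0.35, SE 0.15, adjusted p = 0.723), and 1 lower, the protease Mbtps1 that cleaves ATF6 (-0.31, SE 0.12, adjusted p = 0.685), followed by Cebpg (-0.15, SE 0.07). The ER to Golgi transport list (20 measured) had 1 higher, the cargo receptor Tmed10 (0.33, SE 0.13, adjusted p = 0.682), ahead of Surf4 (0.31, SE 0.14) and Kdelr3 (0.15, SE 0.09). Among 20 measured cytosolic chaperones, taken for comparison, 0 passed (limma), beside 0.141% of all probe sets. At an unadjusted p under 0.05, 2 were higher, beside 3.7%. They were the J-domain genes Dnajb4 (0.34, SE 0.10, adjusted p = 0.410) and Dnajb1 (0.37, SE 0.14, adjusted p = 0.631), followed by Ahsa1 (-0.20, SE 0.10). The median difference of that list was 0.0022.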

How the data were processed

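RNA of each aliquot was hybridised to 1 whole-transcript Affymetrix mouse array, 10 in all and 5 per group by sample title. The authors deposited 1 table of log2 values for 35556 probe sets, made by RMA per the submitters' processing notes, which also name affy and limma without versions or settings. RMA equalises the arrays' distributions and compresses low values; no source used here gives the genome build behind the design. The deposited values were used unchanged. Tests covered the 23410 probe sets that the platform annotation gives 1 or more gene symbols, in limma 3.58.1 under R 4.3.3 (lmFit and eBayes, two-sided, Benjamini-Hochberg over all of them, threshold 0.05), transgenic minus wild type. All 35 member symbols matched a RefSeq table of GRCm38.p6 through the Entrez identifier. Arrays carry no read depth; their number limits the precision.

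Members, lists, sets and alternatives were chosen with earlier results of these data known. All members were named; values per array were given for members past the threshold, the 2 with the smallest p in each role, and Hspa5, Xbp1, Atf4 and Ddit3. The first 3 genes by p were named in each pathway list. The limma step was tested on simulated data of 23410 probe sets with 200 changed, where 36.4% of changes of 0.5, 83.7% of 1 and 98.2% of 2 log2 units were recovered. The simulated noise was independent between probe sets, whereas 1 component held 40.1% of the variance within groups here. Fewer probe sets (33) were called here than were changed in the simulation. These shares are thus a check of the step and not the power of this comparison. Marker lists not described in the results were mast cell and basophil genes (log2 summed levels of 6.90 to 7.11 on the transgenic and 6.98 to 7.14 on the wild-type arrays) and T and NK cell genes (8.34 to 9.24 and 8.49 to 8.88).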

Additional observations from a re-analysis of the deposited data

Results flagged for a closer look

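In 3 of the 70 sets of 5 values (35 genes in 2 groups), 1 array lay far from the other 4 by Dixon's test, where chance alone flags about 1 in 20. Rpn1 read 8.17 on transgenic array 5 against 8.67 to 8.84 on the other transgenic arrays. Stt3a read 9.36 on the same array against 10.05 to 10.30. Manf read 8.04 on wild-type array 5 against 8.31 to 8.42 on the other wild-type arrays.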

How the results depend on the processing

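Precision was limited by 5 arrays a group. The count of members past the threshold was 1 in the reported setting and also with quantile normalization, brighter probe sets only, array weights, the first residual component as a covariate, the array set as a block, values floored at the 20th percentile, and a gene's probe sets averaged. It was 0 with arrays centred on their medians, all probe sets tested, an intensity trend with robust fitting, within set A, within set B, a threshold of 0.01, a fold of at least 1.5, and the exact permutation test, which cannot give a p below 0.00794 and called 0 of all probe sets. Leaving out each array in turn gave 0 to 2 members. Over all probe sets the calls numbered 33 in the reported setting, and 15 with all probe sets tested, 121 with the residual component, 91 with the set block, 4 within set A, 6 within set B, 8 with the floor, 7 at the 0.01 threshold, 0 by exact permutation, and 15 to 71 when an array was left out. Causes were not tested, except that fewer arrays enter within a set.

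The labels do not say whether the replicate numbers in the titles pair the arrays. Deviations of same-numbered arrays correlated at 0.24, 0.35, -0.14, 0.11 and 0.33 for numbers 1 to 5. Only the arrays numbered 3 fell in different sets. Differently numbered arrays were not compared, so these values do not settle whether the arrays were paired. With the numbers as a replicate block, 0 members and 33 probe sets in all were called, and Mlec stood at -0.51 with a limma adjusted p of 0.0966.

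Signs were less stable than calls near zero. In 12 members the sign held in all 26 alternatives, and 23 changed sign in at least 1. Within set A the log2 differences that turned were Hspa5 -0.065, Hsp90b1 -0.048, Hyou1 -0.029, Dnajc3 -0.0050, Manf -0.011, Pdia6 -0.058, P4hb -0.054, Canx -0.042, Ddost 0.096, Rpn2 -0.14, Stt3a -0.056, Herpud1 -0.0032, Sel1l -0.19, Ern1 0.30, Eif2ak3 -0.0021 and Atf4 0.28. Within set B they were Dnajb11 0.083, Pdia4 0.22, Syvn1 -0.020, Atf6 -0.16 and Atf4 0.0080. Centring gave Ddost 0.0018 and Atf4 0.0076, array weights Ddost 0.028 and Atf4 0.039, and the set block Stt3a -0.019 and Atf4 0.14. Leaving out 1 array gave ranges across zero for Hsp90b1 (-0.030 to 0.084), Manf (-0.017 to 0.10), Pdia4 (-0.20 to 0.084), Pdia6 (-0.0086 to 0.067), Calr (-0.091 to 0.0052), Canx (-0.030 to 0.11), Ddost (-0.089 to 0.035), Stt3b (-0.12 to 0.050), Herpud1 (-0.013 to 0.087), Edem2 (-0.011 to 0.095), Eif2ak3 (-0.056 to 0.090) and Atf4 (-0.16 to 0.14).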
